A study of Mus musculus with 6 samples.

Results

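The genes described here encode proteins that store maternal messenger RNA and hold back its translation in the oocyte. They are Zar1, Zar1l, Ybx2, Cpeb1, Dazl, Ddx6, Lsm14b, Patl2, Eif4enif1 and Eif4e1b. These 10 were chosen by name, with no threshold on their measured values, and all 10 had a row among the 25239 gene rows of the count table. Counts came from 6 Smart-seq3 libraries, each labelled as 1 mouse oocyte at the germinal vesicle (GV) stage, when the oocyte is arrested in meiotic prophase with an intact nucleus. The libraries compare 3 water-injected oocytes, the controls, with 3 phthalate-injected ones, which received a mixture of metabolites, the breakdown products of common plasticizers. All oocytes were from females of CD-1, an outbred mouse stock, aged 4 to 6 weeks. In both groups, complexes of oocyte and cumulus cells were taken from antral follicles, injected, and kept in maturation medium with 10% serum, 200 mIU/mL follicle-stimulating hormone and 50 µg/mL pyruvate until GV oocytes were picked. The mixture's members and dose are not given in the sources used here. Neither the animals nor the cultures behind single oocytes are named, and the protocol can be read as 1 oocyte per group, so each group counts as 1 sample. No difference below therefore has a replicate test, and the values of the 3 oocytes of a group show only how far these libraries lay apart.

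A growing oocyte transcribes messenger RNAs that it does not use at once. They are kept with short poly(A) tails in ribonucleoprotein particles, and many are translated only when meiosis resumes or after fertilization, at a time when the oocyte no longer transcribes its genome. RNA-binding proteins mark the stored messages, a helicase and its partners keep them in repressed particles, and cap-binding proteins stop the ribosome from being loaded. The cytoplasmic polyadenylation element (CPE), a U-rich motif near the end of a message, is bound by CPEB1, which first represses and later directs lengthening of the tail.

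The libraries held from 252267 to 300917 gene counts, and 1 CPM (the count scaled to a library total of 1000000) stood for about 0.257 to 0.302 counts. Low counts were mostly even (from 68.0% to 71.1% of counts from 1 to 20 in a library), as when both mates of a read pair are counted, so intervals here rest on halved counts. All 11 oocyte markers with a row had counts, and their summed level was 26510 to 30230 CPM in water libraries and 25930 to 29390 CPM in phthalate libraries. Of 20 cumulus and granulosa markers, 11 were at 0, among them Amh, Foxl2, Ptx3 and Tnfaip6. Their summed level was 0 to 26.0 CPM in water libraries and 7.28 to 33.9 CPM in phthalate libraries. Of 6 theca and stroma markers 5 were at 0, and of 4 immune markers 3 were at 0.

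The CPE, the motif that CPEB1 binds, was searched in the last 100 bases of 1 annotated transcript per gene. The motifs TTTTAT and TTTTAAT, written as DNA and read on the transcript strand only, occurred in 16.6% of such windows over 21825 coding genes (GENCODE M21, GRCm38). Of 14 messages known to be stored or translated during maturation, 7 held a motif, and Ccnb1 and Mos were among those without one. Of the 10 storage genes, 1 held a motif, Ybx2. The sites below match the element that CPEB1 binds, with the motif in capitals, in the 5′ to 3′ direction. They are the Ybx2 site and examples from the 7 stored messages, and binding was not measured. Bub1b held 2 motifs, of which 1 is shown.
Ybx2: gccaTTTTATgaactgtcatgtgccacctg
Btg4: ccctTTTTATgtctttttaaaagtttgatt
Plat: tataTTTTAATctattttagtttttacttt
Bub1b: gtaaTTTTATaacatgtactctcctttcac
Among these, Btg4 encodes an adaptor of the deadenylase complex, Plat tissue plasminogen activator and Bub1b a checkpoint kinase. The Ybx2 motif began 62 bases before the annotated transcript end. In the windows of Ybx2 and Btg4 neither polyadenylation signal searched, AATAAA or ATTAAA, was present, while the other 9 storage genes each held 1, as did 74.9% of all windows. A window without a motif says only that these letters are not there in the annotated transcript.

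Together the 10 genes took 1662, 1919 and 1621 counts in water libraries 1, 2 and 3, and 1584, 1728 and 1547 in phthalate libraries 1, 2 and 3. As a share of gene counts this was 0.617%, 0.638% and 0.571% in the water libraries and 0.628%, 0.586% and 0.563% in the phthalate libraries. The groups overlapped. The summed share was 0.609% for water (95% exact Clopper-Pearson interval 0.586 to 0.633) and 0.591% for phthalate (0.568 to 0.615). These intervals, like all others here, cover counting error only, and amplified reads are not independent molecules.

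The log2 ratio of phthalate over water was taken from the counts summed over the oocytes of a group, scaled by TMM factors. Of the 10 genes, 9 passed the filter on low counts; Ddx6 did not. Among these 9 the ratio was above 0 for 4 and below 0 for 5, with a median of -0.02, beside a median of 0.01 over all 4644 genes that passed. The median of the 9 was 0.08 without water oocyte 3 and -0.16 without phthalate oocyte 3. A change of at least 1.5-fold was reached by 1 of the 9, Patl2, which was lower in phthalate. Of all 4644 genes 15.1% reached it, 6.96% with phthalate higher and 8.14% with phthalate lower. None of the 9 had 3 phthalate CPM values lying wholly above or below the 3 water values, a separation seen in 10.1% of all genes. On ERCC spike-in totals 2.58% of all genes separated, and again none of the 9. Those totals were small, from 292 counts in phthalate library 3 to 753 in water library 1. The share past 1.5-fold depended on abundance: it was 1.34% among 448 genes averaging 100 or more counts and 25.5% among 1860 genes with a mean count below 20. All 7 storage genes averaging 100 or more counts lay between -0.29 and 0.38, the 5th and 95th percentiles of the genes of that abundance, 3 of them above 0 and 4 below.

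**Figure D1:**
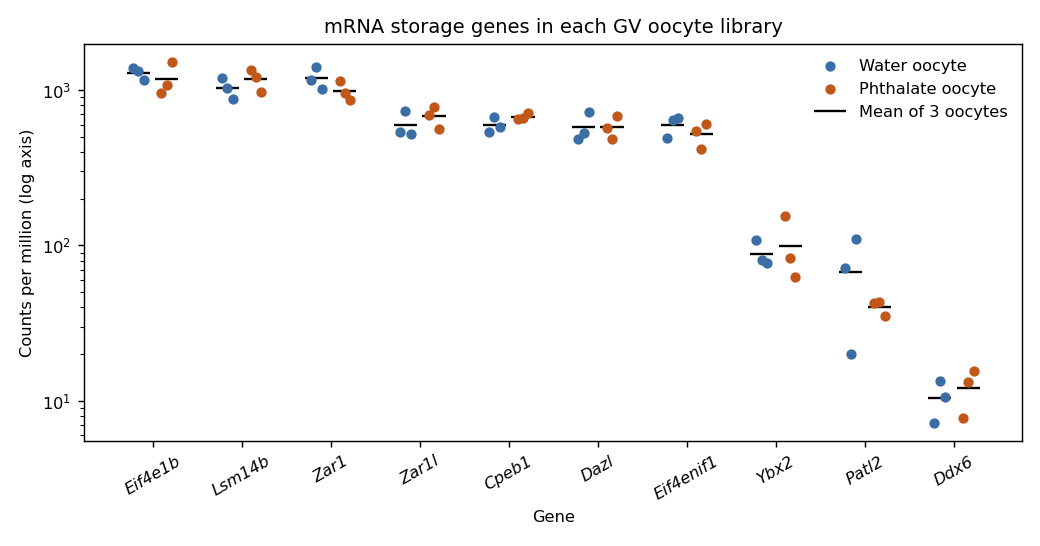
Normalized CPM (log axis) of each storage gene in the 3 water and 3 phthalate oocytes, with the mean of each group as a bar, ordered by mean count. The groups overlap for every gene, and Ybx2, Patl2 and Ddx6 lie far below the other 7.

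The first role is the marking of messages by RNA-binding proteins. Zar1 and Zar1l encode related zinc-finger proteins that bind the untranslated regions of maternal messages and are required for the oocyte's store of them. Zar1 (ENSMUSG00000063935.3, chr5:72576806-72581254, minus strand, GRCm38) had 1158, 1404 and 1008 CPM in water libraries 1 to 3 and 1144, 955 and 868 CPM in phthalate libraries 1 to 3. Water oocyte 2 was the highest and phthalate oocytes 2 and 3 were the lowest, while phthalate oocyte 1 lay among the water values. The summed counts were 1026 and 807, a log2 ratio of -0.27 (95% counting interval -0.46 to -0.08). Without water oocyte 2 the ratio was -0.13, and without phthalate oocyte 1 it was -0.38.

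Zar1l (ENSMUSG00000056586.8, chr5:150507055-150518164, minus strand) had 536, 732 and 518 CPM in the water libraries and 696, 782 and 560 CPM in the phthalate libraries. The groups overlapped through water oocyte 2, which lay above phthalate oocytes 1 and 3, and the ratio was 0.20 (-0.05 to 0.45) from 514 and 560 counts. The interval included 0, and the ratio lay between 0.08 and 0.38 over the alternatives tried.

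Ybx2 encodes the germ-cell Y-box protein MSY2, a general packaging protein of stored messages. The gene (ENSMUSG00000018554.13, chr11:69935796-69941605, plus strand) had only 30, 24 and 22 counts in the water libraries and 40, 25 and 16 in the phthalate libraries. In CPM these were 108, 80.6 and 77.6 for water and 155, 82.9 and 62.3 for phthalate. Phthalate oocytes 1 and 3 were the highest and the lowest of all 6. The ratio was 0.16 (-0.53 to 0.83), and it was -0.27 without phthalate oocyte 1 and 0.39 without phthalate oocyte 3.

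Cpeb1 encodes the CPE-binding protein that switches messages from repression to polyadenylation. The gene (ENSMUSG00000025586.17, chr7:81347026-81455465, minus strand) had 540, 672 and 578 CPM in the water libraries and 653, 663 and 708 CPM in the phthalate libraries. Water oocyte 2 alone lay above phthalate oocytes 1 and 2. The 3 phthalate oocytes were close together, the highest 1.08 times the lowest, against 1.25 times for water. The ratio was 0.17 (-0.08 to 0.43), from 514 and 551 counts. RefSeq places the pseudogenes Gm18922 and Rpl7a-ps9 over Cpeb1, and their part in its counts was not tested. When CPM was taken on library totals without Rn45s, the ribosomal RNA precursor, every phthalate oocyte lay above every water oocyte for Cpeb1, the only one of the 9 to separate there, beside 9.84% of all genes on that scale.

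Dazl encodes a germ-cell RNA-binding protein that controls translation of stored messages during maturation. The gene (ENSMUSG00000010592.9, chr17:50279395-50293636, minus strand) had 486, 531 and 726 CPM in the water libraries and 568, 481 and 681 CPM in the phthalate libraries. Both the lowest and the second highest value were in the phthalate group. The ratio was -0.02 (-0.29 to 0.24), from 499 and 467 counts. It was 0.17 without water oocyte 3 and -0.16 without phthalate oocyte 3, so it had no stable sign.

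The second role is the repressed particle itself. Lsm14b encodes an RNA-binding protein of the LSM14 family that is required to store messages and to complete oocyte meiosis. The gene (ENSMUSG00000039108.14, chr2:180024987-180035465, plus strand) had 1187, 1024 and 871 CPM in the water libraries and 1349, 1213 and 973 CPM in the phthalate libraries. Phthalate oocytes 1 and 2 were above every water oocyte, and phthalate oocyte 3 was below water oocytes 1 and 2. The ratio was 0.20 (0.01 to 0.39), from 882 and 965 counts. It lay between 0.10 and 0.32 over the alternatives tried.

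Patl2 encodes an oocyte member of the PAT1 family of RNA-binding proteins, and its loss impairs oocyte maturation. The gene (ENSMUSG00000027233.4, chr2:122120108-122186189, minus strand) had 20, 6 and 31 counts in the water libraries and 11, 13 and 9 in the phthalate libraries. In CPM these were 72.0, 20.2 and 109 for water and 42.5, 43.1 and 35.0 for phthalate. The highest and the lowest value were both in the water group, which spanned 5.43 times, against 1.23 times in the phthalate group. The ratio was -0.72, or 1.64-fold lower in phthalate, with an interval of -1.72 to 0.20. Genes with a mean count below 20, as Patl2 has, lay between -0.87 and 0.82 at their 5th and 95th percentiles. Without water oocyte 3 the ratio was -0.16 and no storage gene was past 1.5-fold, and without water oocyte 2 it was -1.17. In the RefSeq table the gene span of Patl2 overlaps B2m, which had 1, 19 and 6 counts in the water libraries and 8, 4 and 11 in the phthalate libraries, and Trim69, which had 0 in all 6. The use of strand in counting is not given in the sources used here, and the part of the overlap in the Patl2 counts was not tested.

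Ddx6 encodes the RNA helicase at the core of repressed particles in many cell types. The gene (ENSMUSG00000032097.10, chr9:44604892-44640731, plus strand) had 2, 4 and 3 counts in the water libraries and 2, 4 and 4 in the phthalate libraries. The group sums were 9 and 10 counts, with exact Poisson intervals, on read pairs, of 2.18 to 20.5 and 3.25 to 23.3. The ratio of 0.22 had an interval from -1.82 to 2.73, so no difference could be detected with so few counts. RefSeq places the pseudogene Gm30671 over Ddx6, and the part of this overlap in the Ddx6 counts was not tested.

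The third role is the blocking of the cap. Eif4enif1 encodes 4E-T, which binds the cap-binding protein eIF4E and links it to repressed particles. The gene (ENSMUSG00000020454.17, chr11:3202392-3244588, plus strand) had 493, 641 and 656 CPM in the water libraries and 545, 418 and 603 CPM in the phthalate libraries. Only phthalate oocyte 2 lay below every water oocyte. The ratio was -0.21 (-0.48 to 0.06), and it was -0.05 without phthalate oocyte 2 and -0.33 without phthalate oocyte 3. RefSeq places Sfi1 over this gene, with 2 to 17 counts per library.

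Eif4e1b encodes an oocyte form of the cap-binding protein eIF4E, associated with repression of maternal messages. The gene (ENSMUSG00000074895.10, chr13:54783998-54788459, plus strand) had 1392, 1326 and 1160 CPM in the water libraries and 962, 1077 and 1514 CPM in the phthalate libraries. Phthalate oocytes 1 and 2 were the lowest of the 6 and phthalate oocyte 3 was the highest. The ratio was -0.13 (-0.31 to 0.04), and it was -0.34 without phthalate oocyte 3 and -0.01 without phthalate oocyte 1.

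**Figure D2:**
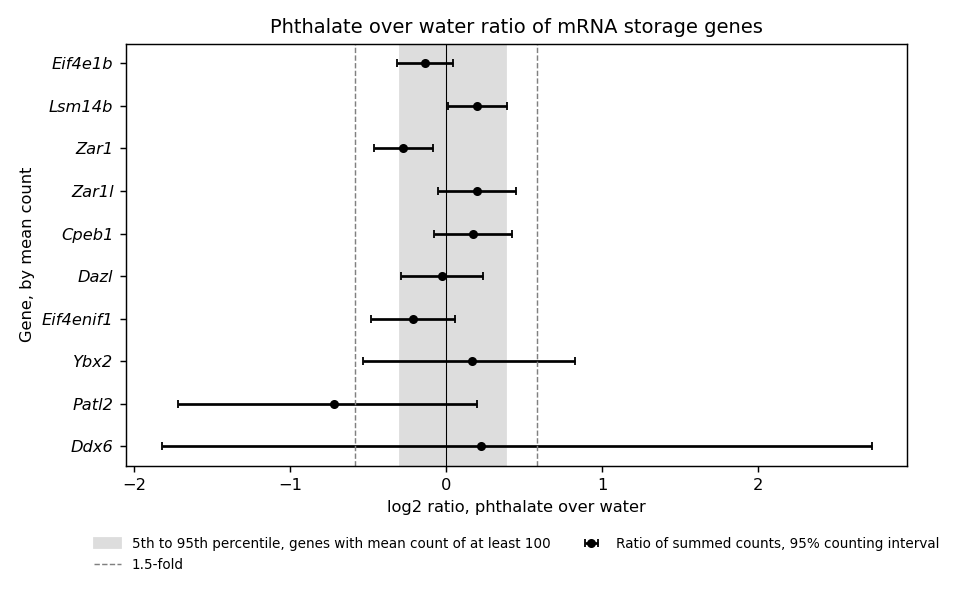
log2 ratio of phthalate over water (x axis) for each storage gene, with its 95% counting interval, the 1.5-fold lines and, in grey, the range from -0.29 to 0.38 that holds the middle 90% of genes averaging 100 or more counts. The points of the 7 abundant genes lie in the grey range, and Patl2 at -0.72 is the only one past a 1.5-fold line.

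The spread between oocytes of a group was set beside that of other genes. Over the 7 storage genes averaging 100 or more counts, the median chi-square per degree of freedom on read pairs, the squared spread relative to counting error, was 3.42 among water oocytes and 2.51 among phthalate oocytes. The medians over all 448 genes of that abundance were 1.44 and 2.52. These values include the spread that amplification adds to counting error. Eif4e1b in the phthalate group had the largest value of the 7, 9.34, and Cpeb1 in the phthalate group the smallest, 0.166. The highest oocyte of a group was, in the median of the 7 genes, 1.36 times the lowest in water and 1.40 times in phthalate. Over all 448 genes these medians were 1.27 in water and 1.375 in phthalate.

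The ratio of the counts of 2 storage genes within a library does not depend on how libraries are scaled, and was looked at after the single genes were seen. Of 21 pairs among the 7 genes averaging 100 or more counts, 3 pairs had 3 phthalate ratios wholly on one side of the 3 water ratios, or 14.3%. Over all 100128 pairs of the 448 genes of that abundance the share was 9.77%. Pairs that share a gene are not independent.

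Zar1 over Zar1l was 2.16, 1.92 and 1.95 in water libraries 1, 2 and 3 and 1.64, 1.22 and 1.55 in phthalate libraries 1, 2 and 3. Neither gene alone separated the groups. Zar1 over Lsm14b was 0.976, 1.37 and 1.16 in the water libraries and 0.848, 0.787 and 0.892 in the phthalate libraries. Cpeb1 over Eif4enif1 was 1.09, 1.05 and 0.882 in the water libraries and 1.20, 1.59 and 1.17 in the phthalate libraries.

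To compare the genes with each other, CPM was divided by transcript length in kilobases (the longest annotated transcript of the gene). The part of the reads that Smart-seq3 takes from the 5′ end does not grow with length, which this scale does not allow for. The cDNA was primed on the poly(A) tail, and the part of tail length in these levels was not tested. Zar1l had the highest level, with a mean of 712 CPM per kilobase over the 6 libraries (range 579 to 874). Eif4e1b followed at 581 (452 to 710), Zar1 at 437 (348 to 563) and Lsm14b at 430 (339 to 526). The ranges of each neighbouring pair among these 4 overlapped, while the range of Zar1l lay wholly above those of Zar1 and Lsm14b on this length. A gap separated them from Cpeb1 at 204 (174 to 228), Dazl at 194 (162 to 244) and Eif4enif1 at 151 (113 to 177), whose neighbouring ranges again overlapped. Below a further gap came Ybx2 at 56.4 (37.2 to 92.4) and Patl2 at 22.0 (8.28 to 44.9), which overlapped with each other. Ddx6 was lowest at 1.86 (1.19 to 2.57), with no overlap with Patl2.

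The 3 tiers and the places of Eif4enif1, Ybx2, Patl2 and Ddx6 were the same in the means of either group. Within the top tier, Zar1 and Lsm14b changed places between the group means, as did Cpeb1 and Dazl in the tier below. The place of Zar1 also depended on its gene model. Its longest transcript, of 2494 bases, retains an intron, and on the longest coding transcript, of 1429 bases, Zar1 had 762 CPM per kilobase and was first of the 10. Per kilobase of coding sequence Eif4e1b was first at 1692 and Lsm14b second at 1205, while Dazl had 647 and Zar1l 730.

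Most storage genes belong to families with relatives in other tissues, and the form known from oocytes was usually the higher one. Lsm14b exceeded Lsm14a per length in 6 of 6 libraries and made up 84.0% to 94.4% of the pair. Cpeb1 made up 89.0% to 91.0% of the 4 CPEB genes, above Cpeb2, Cpeb3 and Cpeb4 in all 6 libraries. Eif4e1b made up 63.6% to 77.4% of the 4 eIF4E genes. The next in that family was Eif4e3 at 17.7% to 29.9%, while Eif4e itself, the general cap-binding factor, held 2.25% to 3.92%. On coding sequence length Eif4e1b held 53.0% to 68.9% and Eif4e 5.25% to 8.84%. Patl2 made up 77.6% to 96.4% of the pair with Patl1, on few counts. Boll, a relative of Dazl, had 0 counts in all 6 libraries.

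The Y-box family was the exception. Ybx2 made up 20.1% to 29.3% of its family per length, below Ybx3 (37.6% to 51.6%) in 6 of 6 libraries and below Ybx1 (24.3% to 40.5%) in 5 of 6. On coding sequence length Ybx2 was below both in all 6. Between Zar1 and Zar1l the higher gene depended on the length used: Zar1l was higher in 6 of 6 libraries on the longest transcript, and Zar1 in 5 of 6 on coding sequence.

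**Figure D3:**
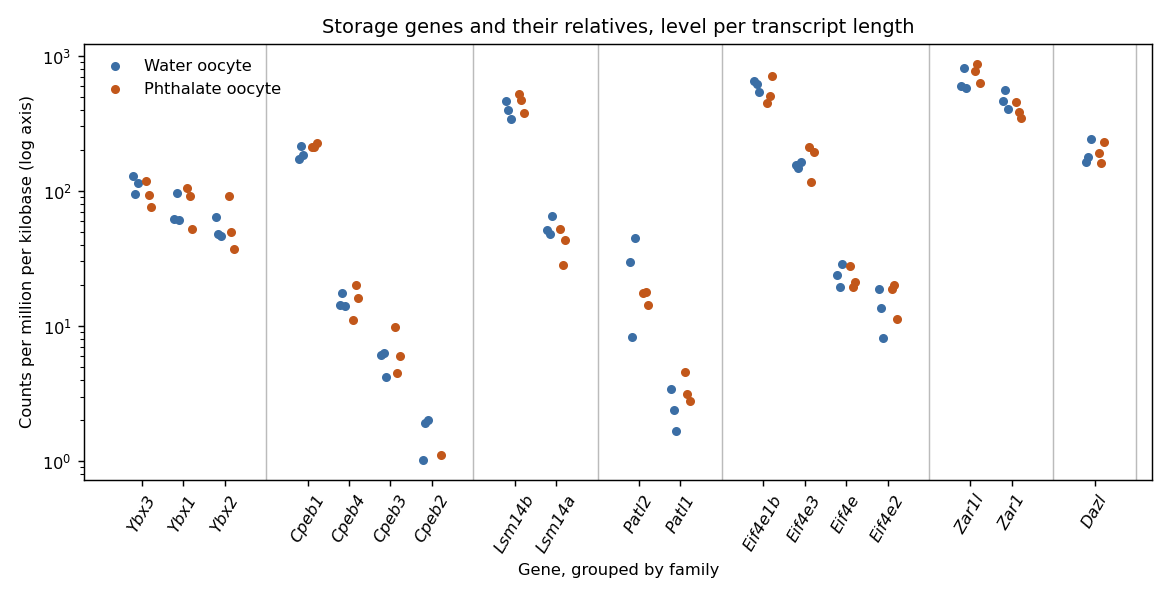
Level per transcript length (CPM per kilobase, log axis) of storage genes and their family relatives in each oocyte, with families separated by grey lines; the 2 zero values of Cpeb2 and all values of Boll (0 counts) are not drawn. Cpeb1, Lsm14b, Patl2 and Eif4e1b lie above their relatives in every library, and Ybx2 lies below Ybx3.

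Genes that work beside these 10 were described with 4 lists. Of 24 other proteins of stored messenger RNA particles, 16 passed the filter, 7 with a ratio above 0 and 9 below, with a median of -0.04. None was past 1.5-fold and in none did the groups separate. The median was -0.16 without phthalate oocyte 2 and 0.03 without phthalate oocyte 3, and 3 genes were past 1.5-fold without phthalate oocyte 3, as without water oocyte 3, beside 19.6% and 16.9% of all genes. The most abundant was Igf2bp2, which encodes an RNA-binding protein that stabilizes messages. It had 471, 484 and 420 CPM in the water libraries and 433, 511 and 440 CPM in the phthalate libraries, with a ratio of 0.02 (-0.28 to 0.31).

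Of 12 genes of cap binding and its inhibitors, 9 passed, 7 above 0 and 2 below, with a median of 0.14 and none past 1.5-fold. Without phthalate oocyte 1 the median was -0.01. The most abundant was Eif4e3, with 392, 373 and 413 CPM in the water libraries and 533, 295 and 490 CPM in the phthalate libraries. In 2 genes, named for this after their values were seen, every phthalate oocyte lay above every water oocyte, beside 5.15% of all genes that separated in that direction. Gigyf2, which encodes a partner of the repressive cap-binding protein 4EHP, had 180, 161 and 155 CPM in water and 205, 278 and 226 CPM in phthalate, a ratio of 0.53 (0.08 to 1.00). Eif4a1, which encodes the helicase of the initiation complex, had 324, 302 and 296 CPM in water and 352, 328 and 432 CPM in phthalate, a ratio of 0.26 (-0.09 to 0.61). On ERCC spike-in totals, which were small, the groups overlapped for both genes, and only 2.58% of all genes separated in either direction. The 3 eIF4E-binding inhibitor genes Eif4ebp1, Eif4ebp2 and Eif4ebp3 had 4, 6 and 11 counts over all 6 libraries and did not pass.

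For the cytoplasmic polyadenylation switch, 11 genes had a row and 9 passed, 7 above 0 and 2 below, with a median of 0.20. The most abundant was Pabpn1l, which encodes an oocyte poly(A)-binding protein. It had 896, 900.0 and 846 CPM in the water libraries and 1156, 1051 and 872 CPM in the phthalate libraries, a ratio of 0.22 (0.02 to 0.43). The 2 genes past 1.5-fold, 1 in each direction (beside 6.96% and 8.14% of all genes), had few counts and wide intervals, and are named only for that reason. Pabpc1, which encodes the general cytoplasmic poly(A)-binding protein, had 36 and 19 counts and a ratio of -0.85 (-2.05 to 0.42). The Pabpc1 ratio was -0.31 without phthalate oocyte 3 and -1.96 without phthalate oocyte 1. Cpsf4, which encodes a subunit of the factor that recognizes the polyadenylation signal, had 35 and 50 counts and a ratio of 0.59 (-0.39 to 1.51). The Cpsf4 ratio was 0.02 without phthalate oocyte 1 and 0.88 without phthalate oocyte 3. Without phthalate oocyte 3 the median of this list was 0.03, and without phthalate oocyte 2 it was 0.04.

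All 14 messages that are stored and activated at maturation passed, 6 above 0 and 8 below, with a median of -0.01 and none past 1.5-fold. Among those averaging 100 or more counts, Btg4 and Slbp lay below -0.29, the 5th percentile of genes of that abundance. The others lay between it and the 95th percentile of 0.38. Slbp, named for this after its values were seen, had a ratio of -0.35 (-0.58 to -0.12), and its groups overlapped. The most abundant was Btg4, with 2342, 3496 and 3329 CPM in the water libraries and 2520, 1909 and 2984 CPM in the phthalate libraries. Only phthalate oocyte 2 lay below every water oocyte, and the ratio was -0.33 (-0.45 to -0.21). It was -0.15 without phthalate oocyte 2 and -0.49 without phthalate oocyte 3. Plat and Bub1b, whose sites are printed above, had ratios of 0.10 and -0.08.

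**Figure D4:**
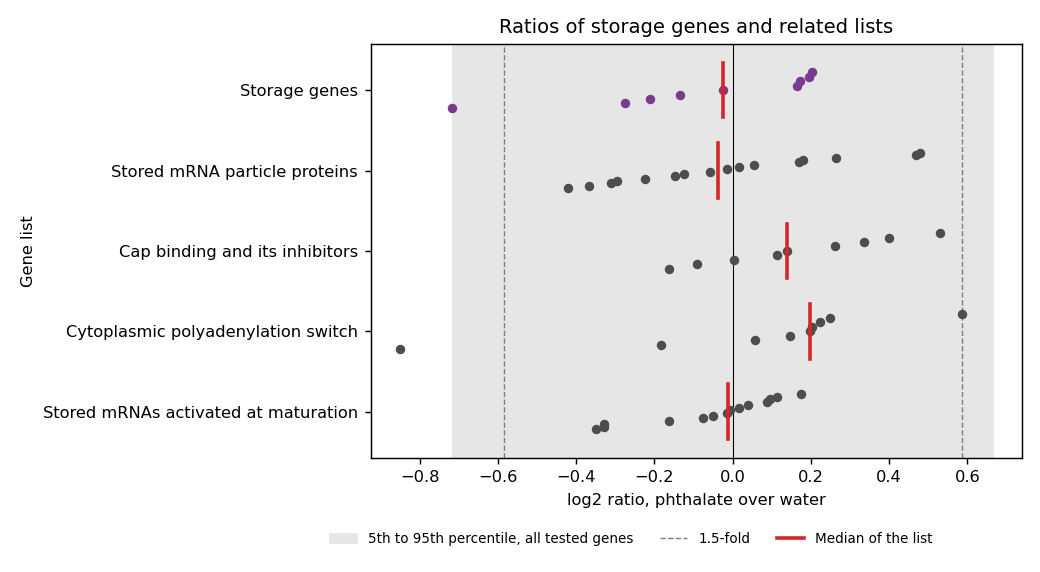
log2 ratios of phthalate over water for the 9 storage genes and the genes of 4 related lists that passed the filter, 1 point per gene, with list medians in red and the middle 90% of all 4644 genes in grey. The medians lie between -0.04 and 0.20, and the points past a 1.5-fold line are Patl2, Pabpc1 and Cpsf4.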

How the data were processed

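Messenger RNA was measured in 6 single-oocyte libraries (3 water, 3 phthalate). Per the labels' protocols, oligo(dT)-primed, template-switched cDNA was amplified, made into Nextera XT libraries and sequenced on a MiSeq as pairs of 150 bp reads. The authors deposited raw counts per gene symbol, with 92 ERCC spike-in rows. Per the submitters' processing notes, cutadapt, Trimmomatic, HISAT2, DESeq2 and the build mm10 were used, with no role or version. Counting tool, annotation, use of strand and molecular identifiers are not given in the sources used here.

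ERCC rows were left out of totals. Genes were filtered with edgeR 4.0.16 filterByExpr (minimum count 10, minimum total 15; R 4.3.3), and CPM and ratios used TMM-scaled totals. Ratios are phthalate over water of summed counts. Their 95% intervals are exact (Clopper-Pearson, scipy 1.17.1) on counts halved to read pairs. They were checked on simulated counts that were all even and held counting error only. That check covers the calculation, not the spread of these libraries. Depth was 252267 to 300917 counts, so a gene with a mean count below 20 has a wide interval. Because the labels name no animal or culture, the 3 libraries of a group were counted as 1 sample and no test was made, and 1.5-fold stands for a call. The members and lists were chosen with earlier results of these data known. All 10 members are named, with the most abundant gene of each list and list genes past 1.5-fold with a mean count of at least 20, of which there were none. Other list genes are named outside this rule. Among them, Gigyf2, Eif4a1, Pabpc1, Cpsf4 and Slbp were named after their values were seen. Names and lengths came from GENCODE M21 and overlaps from RefSeq, both GRCm38, the assembly that mm10 denotes. Papd4 had no row because the table uses Tent2 for that gene. Scaling, filter, weighting of oocytes, transcript length and each library in turn were varied.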

Additional observations from a re-analysis of the deposited data

How the results depend on the processing

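Over 11 alternatives Patl2 stayed below 0, from -1.17 to -0.16, and past 1.5-fold in all but the one without water oocyte 3. Zar1, Eif4enif1 and Eif4e1b stayed below 0 and Zar1l, Cpeb1, Lsm14b and Ddx6 above 0 in the same 11. Dazl changed sign in 3 of them (-0.16 to 0.17) and Ybx2 in 1. Leaving out 1 oocyte gave 0 to 3 separated members of 9 (beside 18.1% to 24.5% of all genes), 0 to 1 members past 1.5-fold, a member median of -0.16 to 0.079, and 786 to 909 genes past 1.5-fold in place of 701. It gave list medians of -0.012 to 0.25 (cap binding), 0.031 to 0.24 (polyadenylation), -0.16 to 0.03 (particle proteins) and -0.08 to 0.10 (stored messages), with 0 to 2, 1 to 2, 0 to 3 and 0 to 2 genes past 1.5-fold. ERCC scaling moved the median of all genes to 0.12, and with it the summed members to 0.089. It put 1 gene of the particle list and 1 of the cap list past 1.5-fold. DESeq2 size factors, library totals, and totals without Rn45s each left 1 polyadenylation gene past 1.5-fold, Cpsf4 having been at the line, and the last separated 1 member, Cpeb1. Without a filter 5086 of 12804 genes were past 1.5-fold, with 5 particle and 2 cap genes, since genes with few counts enter. At a mean count of at least 100 there were 6 of 448, and 0 polyadenylation genes. On coding sequence 5 members kept their place in the order of levels, and on the median length of coding transcripts 7 did. The longest coding transcript was an alternative chosen after seeing the data. No paired analysis was possible because the labels do not tie equal replicate numbers to an animal, culture or day, and no result comes from a test. Depth limits Ddx6, Patl2 and Ybx2 most.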

Other observations

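Several genes of the storage pathway had few counts in every library. Ddx6 had 19 counts over all 6 libraries, Patl1 had 21 and Zfp36l2, which encodes a decay factor of maternal messages, had 10. Fmr1 had 8 counts, all in phthalate oocyte 2.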
